A study of Mus musculus with 4 samples.

Results

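The expression of 10 genes of Wnt signalling was followed through mouse lung tumours: the secreted ligands Wnt7b, Wnt4, Wnt5a and Wnt7a, the ligand-processing enzyme Porcn, the receptors Lgr4 and Lgr5, and the readouts Axin2, Notum and Nkd1. They were taken by symbol from the gene table, and all 10 were found among its 32289 features. Wnt ligands are lipid-modified by Porcn before they are secreted, and they act on neighbouring cells through Frizzled receptors and Lrp co-receptors. In the canonical branch β-catenin then enters the nucleus and works with TCF and LEF factors on target genes, among which Axin2, Notum and Nkd1 are feedback inhibitors. In the adult lung, Wnt signals from fibroblasts are known to act on alveolar type 2 cells, which make surfactant and can give rise to the flat alveolar type 1 cells.

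The cells came from macroscopic tumours of mice labelled KrasFSF-G12D, p53frt, Rosa-FSF-CreERT2 and Hnf4aflox, a genotype given for all 4 libraries, controls included. The tumours were started with an adenovirus carrying mSPC-FlpO, in which a surfactant protein C promoter drives the Flp recombinase, given by intubation. Tamoxifen, which activates the CreERT2 recombinase, or vehicle was injected 10 weeks later, and cells were collected 2 weeks after that. Vehicle is named in 2 ways, as corn oil in the protocol and as Ethanol in the treatment label. Each suspension was sequenced as it was, here called pre-depletion, and after magnetic removal of cells with CD45, a leukocyte surface protein, or CD31, an endothelial one, here called post-depletion. The library titles begin with KP for vehicle and with KPH for tamoxifen, although 1 genotype is given for all. That makes 1 library per group: vehicle pre-depletion, vehicle post-depletion, tamoxifen pre-depletion and tamoxifen post-depletion. The labels give neither the number of animals nor the number of tumours behind a library. The pre- and post-depletion libraries of 1 treatment are portions of the same cells, so they do not replicate each other. No statistical test is possible in this design, and every interval below is an exact 95% interval for counting error only.

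After filtering, 7108, 6919, 6111 and 7358 cells were kept from the libraries in the order just given, and library totals ran from 92644997 to 144994771 UMIs (unique molecular identifiers, 1 per captured transcript). Pairs of libraries shared 10 to 18 cell barcodes, where 7.0 to 8.9 were expected by chance. Epithelial-like cells numbered 967, 6452, 1003 and 7050 in the 4 libraries, and tumour cells were not separated from other epithelial cells. Immune cells came almost wholly from the pre-depletion libraries, endothelial-like cells numbered 121 to 160 in each library, and fibroblast-like cells (50 to 87 per library) and mural-like cells (29 to 47) were few in all of them. Hnf4a, the floxed gene, stood at 53.3 and 55.1 CPM (UMIs per 1000000 UMIs of the class) in vehicle epithelial-like cells, whereas those from the libraries labelled tamoxifen had 86.1 and 83.0 CPM. Counts were thus not lower where deletion was intended; 3′ counts may fall outside a deleted stretch, so the labels could not be checked from them, and no direction below is tied to loss of Hnf4a. An exchange of the treatment labels would turn every direction between treatments given below.

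Levels are given as CPM over all the cells of a class or state in a library, always in the order vehicle pre-depletion, vehicle post-depletion, tamoxifen pre-depletion, tamoxifen post-depletion. Epithelial-like cells were divided into 13 states by clustering without any Wnt gene. State 1 was led by Spp1, S100a6, Itga2 and Procr, and state 2 was alveolar type 2-like and led by Trf, Ly6d and Gkn2. State 3 was cycling, state 4 was another alveolar type 2-like state led by Lyz2, Scd1 and Lyz1, and state 5 was alveolar type 1-like. State 6 was led by Zmat4, Bex2 and Bex4. States 7 and 8 were named secretory airway-like, with Gdf15 and Agr2 or Scgb3a2 and Tmeff2 in the lead. Of the 6 airway markers, 4 and 3 were detected in at least 10% of their cells, and only Scgb3a2 was among their leading genes. Another of these markers, Scgb1a1, was among the leading genes of state 4. State 9 was led by Dlk1, Dcpp1 and Bpifa1, state 11 by Dcpp1, Dlk1 and Stra8, and state 12 by Retnla, Iigp1 and H2-Q7. States 10 and 13 were small, with 49 and 28 cells. Alveolar type 2 markers were also the best match of states 6, 9, 10, 11 and 12. These stayed unnamed because no such marker was among their 10 leading genes. The alveolar type 2 marker score of state 12 (1.07) was above that of state 2 (0.68). State sizes differed between treatments: state 7 held 1251 cells of the vehicle post-depletion library and 133 of its tamoxifen counterpart, and state 9 held 131 and 1541.

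Promoter sequence is shown for 3 members that read out or receive the signal, because Axin2 and Nkd1 are textbook TCF and LEF targets and the stretch before the start is where such motifs are usually sought. RefSeq promoters (build GRCm38.p6) were at hand for Axin2, Lgr4, Nkd1, Wnt4 and Wnt7a. The 250 bases before the RefSeq start are printed 5′ to 3′ for those 3, all on the plus strand. They lie at chr11:108920099-108920348 for Axin2, chr2:109917397-109917646 for Lgr4 and chr8:88527383-88527632 for Nkd1; the Nkd1 stretch lies inside the longer gene model, which starts at 88521354 on chromosome 8.
Axin2: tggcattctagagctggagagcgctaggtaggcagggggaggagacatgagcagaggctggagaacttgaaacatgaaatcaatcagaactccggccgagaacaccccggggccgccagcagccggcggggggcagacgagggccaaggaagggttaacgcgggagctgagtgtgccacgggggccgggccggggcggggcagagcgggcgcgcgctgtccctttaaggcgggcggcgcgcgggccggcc
Lgr4: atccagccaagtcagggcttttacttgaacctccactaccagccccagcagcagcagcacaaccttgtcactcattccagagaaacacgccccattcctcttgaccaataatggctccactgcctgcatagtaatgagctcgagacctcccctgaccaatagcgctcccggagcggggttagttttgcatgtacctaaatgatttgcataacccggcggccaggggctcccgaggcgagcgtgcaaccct
Nkd1: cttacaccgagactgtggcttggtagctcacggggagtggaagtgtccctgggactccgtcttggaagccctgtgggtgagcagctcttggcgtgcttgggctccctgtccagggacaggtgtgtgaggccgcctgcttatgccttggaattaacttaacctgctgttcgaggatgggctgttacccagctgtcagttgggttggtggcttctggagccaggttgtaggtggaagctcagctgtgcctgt
Their GC content was 69.2%, 55.6% and 58.4%, against a median of 52.4% over 32851 promoters. The TCF/LEF motif CTTTGAA, its close relative CTTTGAT and the other forms written CTTTGTA or alternatively CTTTGTT, which differ only in their last 2 letters, were searched on either strand. They had no match in the 300 bases around the start (250 before it and 50 after) of any of the 5 members, and no letters are therefore in capitals. Of all promoters of that length, 16.9% held at least 1 match. The window leaves out introns and distant enhancers.

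Among the ligands, Wnt4 and Wnt5a were found mainly in the stroma. Wnt4 stood at 114, 100.3, 134 and 100.2 CPM in fibroblast-like cells and at 127, 91.8, 120 and 67.3 CPM in mural-like cells, the contractile cells around vessels. In epithelial-like cells it lay between 2.59 and 2.97 CPM in all 4 libraries, and no immune class passed 6.82 CPM. Fibroblast-like and mural-like ranges overlapped for this ligand, and both lay far above every epithelial value. Wnt5a, best known for signalling that does not pass through β-catenin, stood at 127, 80.4, 145 and 115 CPM in fibroblast-like and at 112, 134, 75.0 and 76.1 CPM in mural-like cells. Epithelial-like cells held 6.67, 6.60, 6.07 and 6.57 CPM of it, a narrow range close to the 3.74 to 4.95 CPM of endothelial-like cells.

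Both stromal ligands were spread over the fibroblast-like cells rather than held by 1 kind. In the larger subcluster, led by Inmt and Mfap4, Wnt4 ran from 79.8 to 139 CPM and Wnt5a from 85.1 to 173 CPM. In the subcluster led by Spp1, Slc20a1 and Col8a1, Wnt4 ran from 82.4 to 113 CPM and Wnt5a from 69.9 to 103 CPM over the 3 libraries with at least 20 such cells. The 2 subclusters overlapped for both genes. After thinning every cell to 2000 UMIs, Wnt5a was seen in 28.9%, 16.0%, 26.0% and 19.7% of fibroblast-like cells and Wnt4 in 14.5%, 13.6%, 18.0% and 11.5%, at median depths of 23763, 13032, 20274.5 and 10339.5 UMIs. Alveolar macrophage-like cells of the pre-depletion libraries, which should lack both, showed Wnt5a in 0 of 1591 cells (which allows up to 0.189%) and in 0.0495%, and Wnt4 in 0.126% and 0.0495%, at 8764 and 8919 UMIs. The unthinned fibroblast-like shares were 71.3%, 55.2%, 74.0% and 54.7% for Wnt5a and 47.5%, 41.4%, 56.0% and 37.5% for Wnt4. Alveolar type 2 markers moved with depletion in these cells: the 9 of them summed to 224 and 299.5 CPM in the fibroblast-like cells of the pre-depletion libraries and to 1432 and 1374 CPM after depletion. Their source, and its part in the lower post-depletion values, was not tested.

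**Figure D1:**
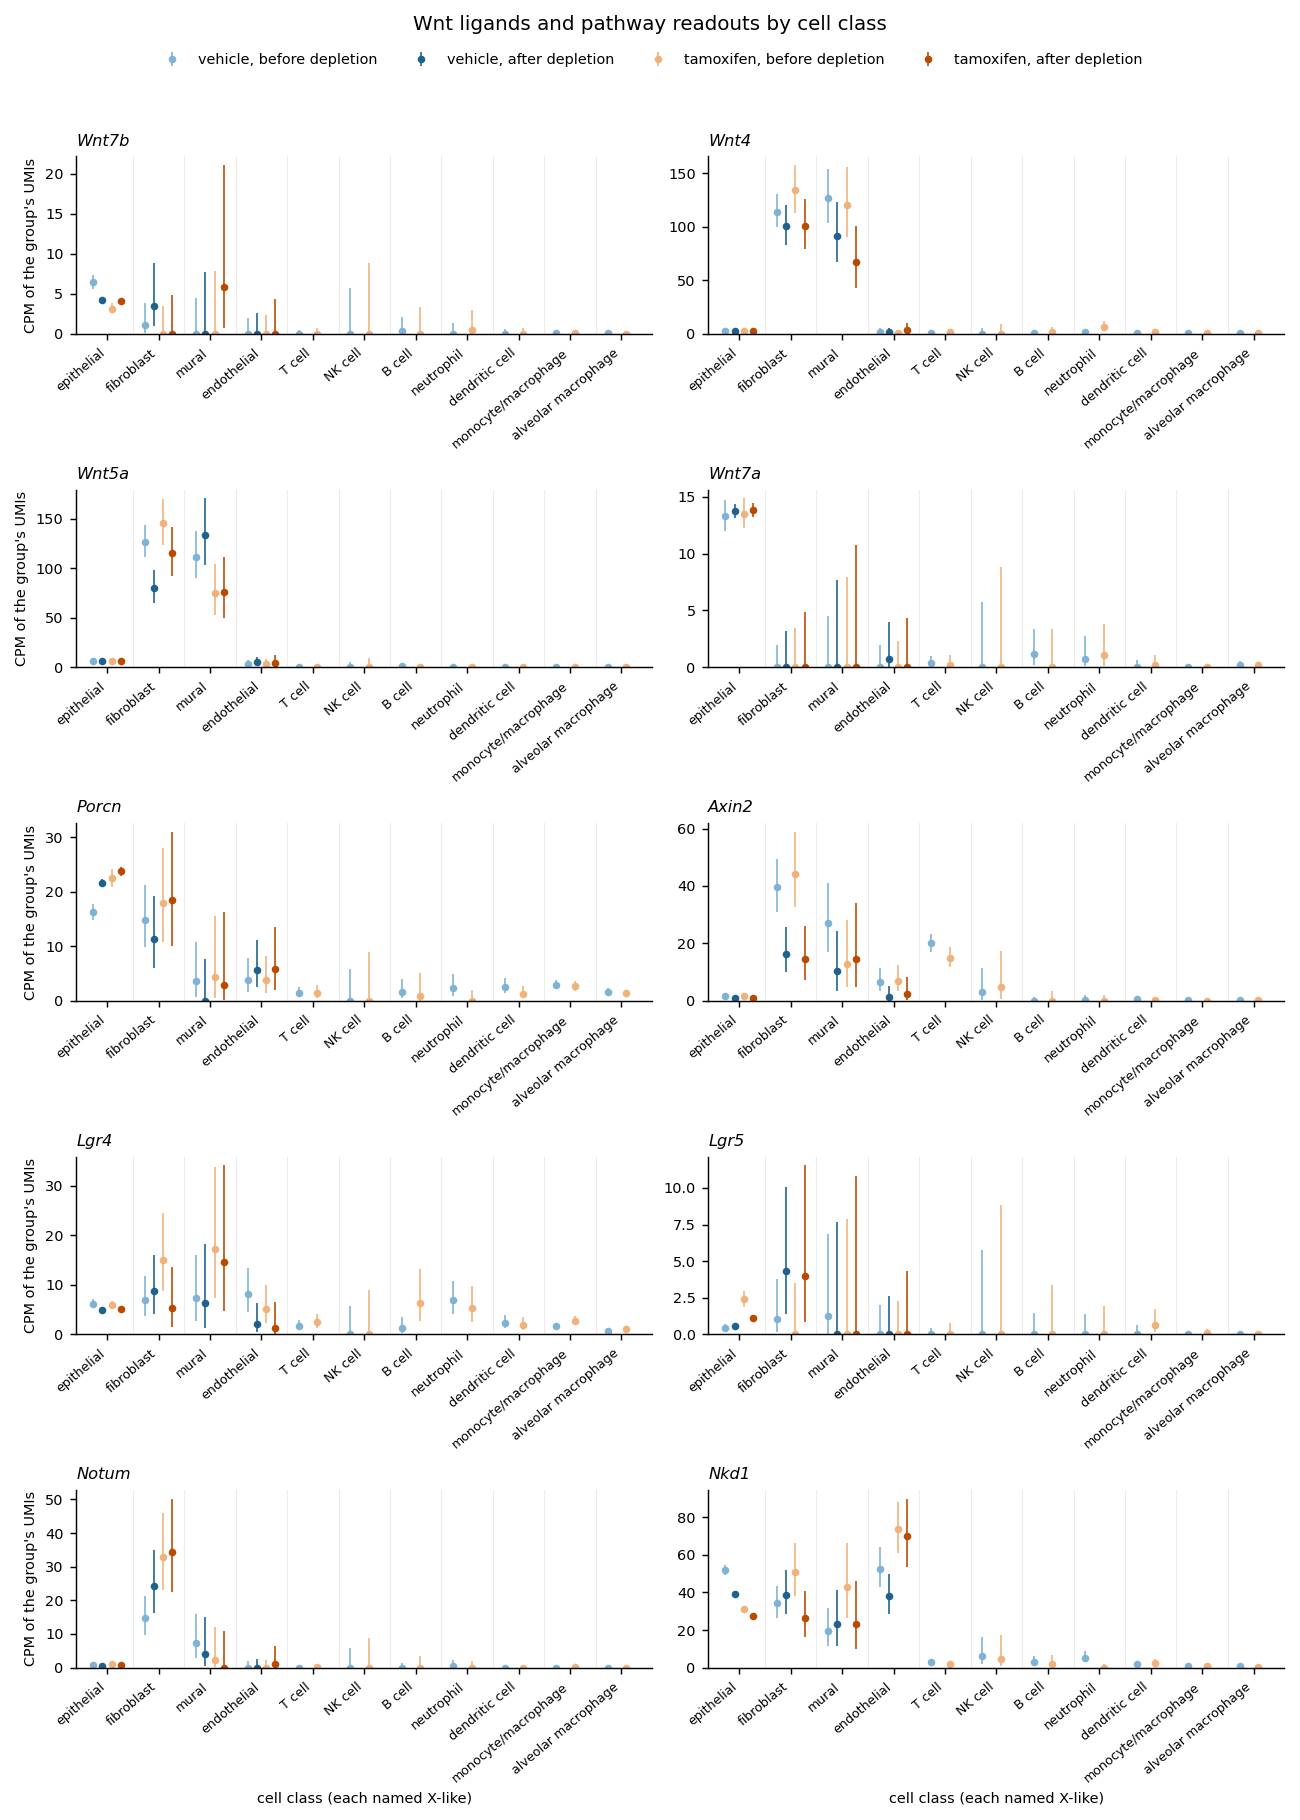
Levels of the 10 members by cell class, 1 point per library, with CPM on a linear axis that differs between genes and bars for the 95% counting interval; classes with under 20 cells in a library have no point there, and plasma cells are not plotted. Wnt4 and Wnt5a stand at 67.3 to 145 CPM in fibroblast-like and mural-like cells, and Nkd1 is high in endothelial-like, epithelial-like and stromal cells alike.

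Within the epithelium the same ligands had their own, lower pattern. Wnt5a was highest in states 2 and 6, at 11.5 to 14.1 CPM and 11.5 to 14.2 CPM, which do not differ beyond their spread. It was next in state 7 (7.10 to 10.3 CPM) and low in state 4, at 0.820 to 1.64 CPM. The 2 states named alveolar type 2-like thus sat near opposite ends of the order for Wnt5a, and their ranges did not overlap. Wnt4 was highest in state 12, whose other leading genes belong to the interferon response, with 10.6 and 14.7 CPM in its 2 measured libraries on 24 UMIs in all. Fibroblast markers summed to 19.4 to 49.2 CPM in epithelial-like cells, where the same 8 markers summed to 12240 CPM in the fibroblast-like cells of the vehicle pre-depletion library; the part of free stromal RNA in the low epithelial Wnt4 and Wnt5a values was not tested.

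Wnt7a and Wnt7b were the epithelial ligands. Wnt7a stood at 13.3, 13.8, 13.5 and 13.8 CPM over all epithelial-like cells, and no UMI of it was counted in fibroblast-like or mural-like cells of any library. Wnt7b stood at 6.43, 4.28, 3.16 and 4.06 CPM in epithelial-like cells, and no UMI was counted in endothelial-like or T cell-like cells. Wnt7b UMIs in fibroblast-like cells (0 to 3.46 CPM) and mural-like cells (0 to 5.85 CPM) were close to the limit of those small classes.

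State 1 carried most of both. Wnt7a there stood at 44.5, 43.6, 66.9 and 54.2 CPM, above the alveolar type 1-like state 5 with 40.1, 34.7, 30.5 and 24.5 CPM in each library. Every other state stayed at or below 9.63 CPM, so these 2 states stood apart from the rest. Wnt7b stood at 23.1, 14.4, 15.3 and 18.1 CPM in state 1. The next value was 10.4 CPM in state 11 of the vehicle pre-depletion library, while in vehicle post-depletion state 5 (5.23 CPM) was above state 11 (3.40 CPM). States 1 and 5 therefore shared Wnt7a, while state 5 had only 2.10 to 5.23 CPM of Wnt7b. In cells thinned to 2000 UMIs, Wnt7a was seen in 8.54% (7.05% to 10.2%) and 10.6% (8.81% to 12.5%) of state 1 cells in the post-depletion libraries, and in 0.214% and 0.376% of state 6 cells. The unthinned shares in state 1 were 48.0% and 48.8%, at median depths of 21557 and 18622 UMIs, and in state 6 they were 1.49% and 4.21% at 18089 and 16120 UMIs.

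The 2 epithelial ligands divided state 1 to different degrees. A cluster of its cells led by Clu, Itga2, Spp1, Pyy and Tff1, picked out after its values were seen, held 49, 427, 38 and 441 of them. It is called the Pyy-led cluster below, although Clu, Itga2 and Spp1 stand before Pyy among its leading genes. A finer cluster led by Pyy and Pthlh, described later, is a different group, with 17 state 1 cells in the vehicle post-depletion library. Wnt7b in the Pyy-led cluster stood at 52.9, 33.3, 28.2 and 28.8 CPM, and in the other cells of state 1 at 5.85, 3.49, 7.10 and 9.28 CPM, with no overlap between the 2 portions. Wnt7a stood at 58.5, 50.1, 59.3 and 64.2 CPM in the cluster and at 36.5, 39.9, 71.7 and 45.9 CPM in the other cells. These ranges overlapped. Library by library, Wnt7a was higher in the cluster, with counting intervals apart, in all but tamoxifen pre-depletion. There it was lower in the cluster and the intervals overlapped. At a finer clustering the Wnt7b level was concentrated further: a group of 287 cells led by Spp1, Vim, Fn1 and Hmga2 and lying wholly in state 1 held 92.8, 77.5 and 47.6 CPM in the 3 libraries with at least 20 such cells. Thinned single cells of state 1 were compared by whether they held a Wnt7a UMI. In vehicle post-depletion, Wnt7b was seen in 2.80% (0.582% to 7.98%) of those with one and in 2.09% (1.35% to 3.10%) of those without. In tamoxifen post-depletion the shares were in the other order, 1.71% (0.208% to 6.04%) and 3.935% (2.81% to 5.34%). The intervals overlap in both libraries.

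**Figure D2:**
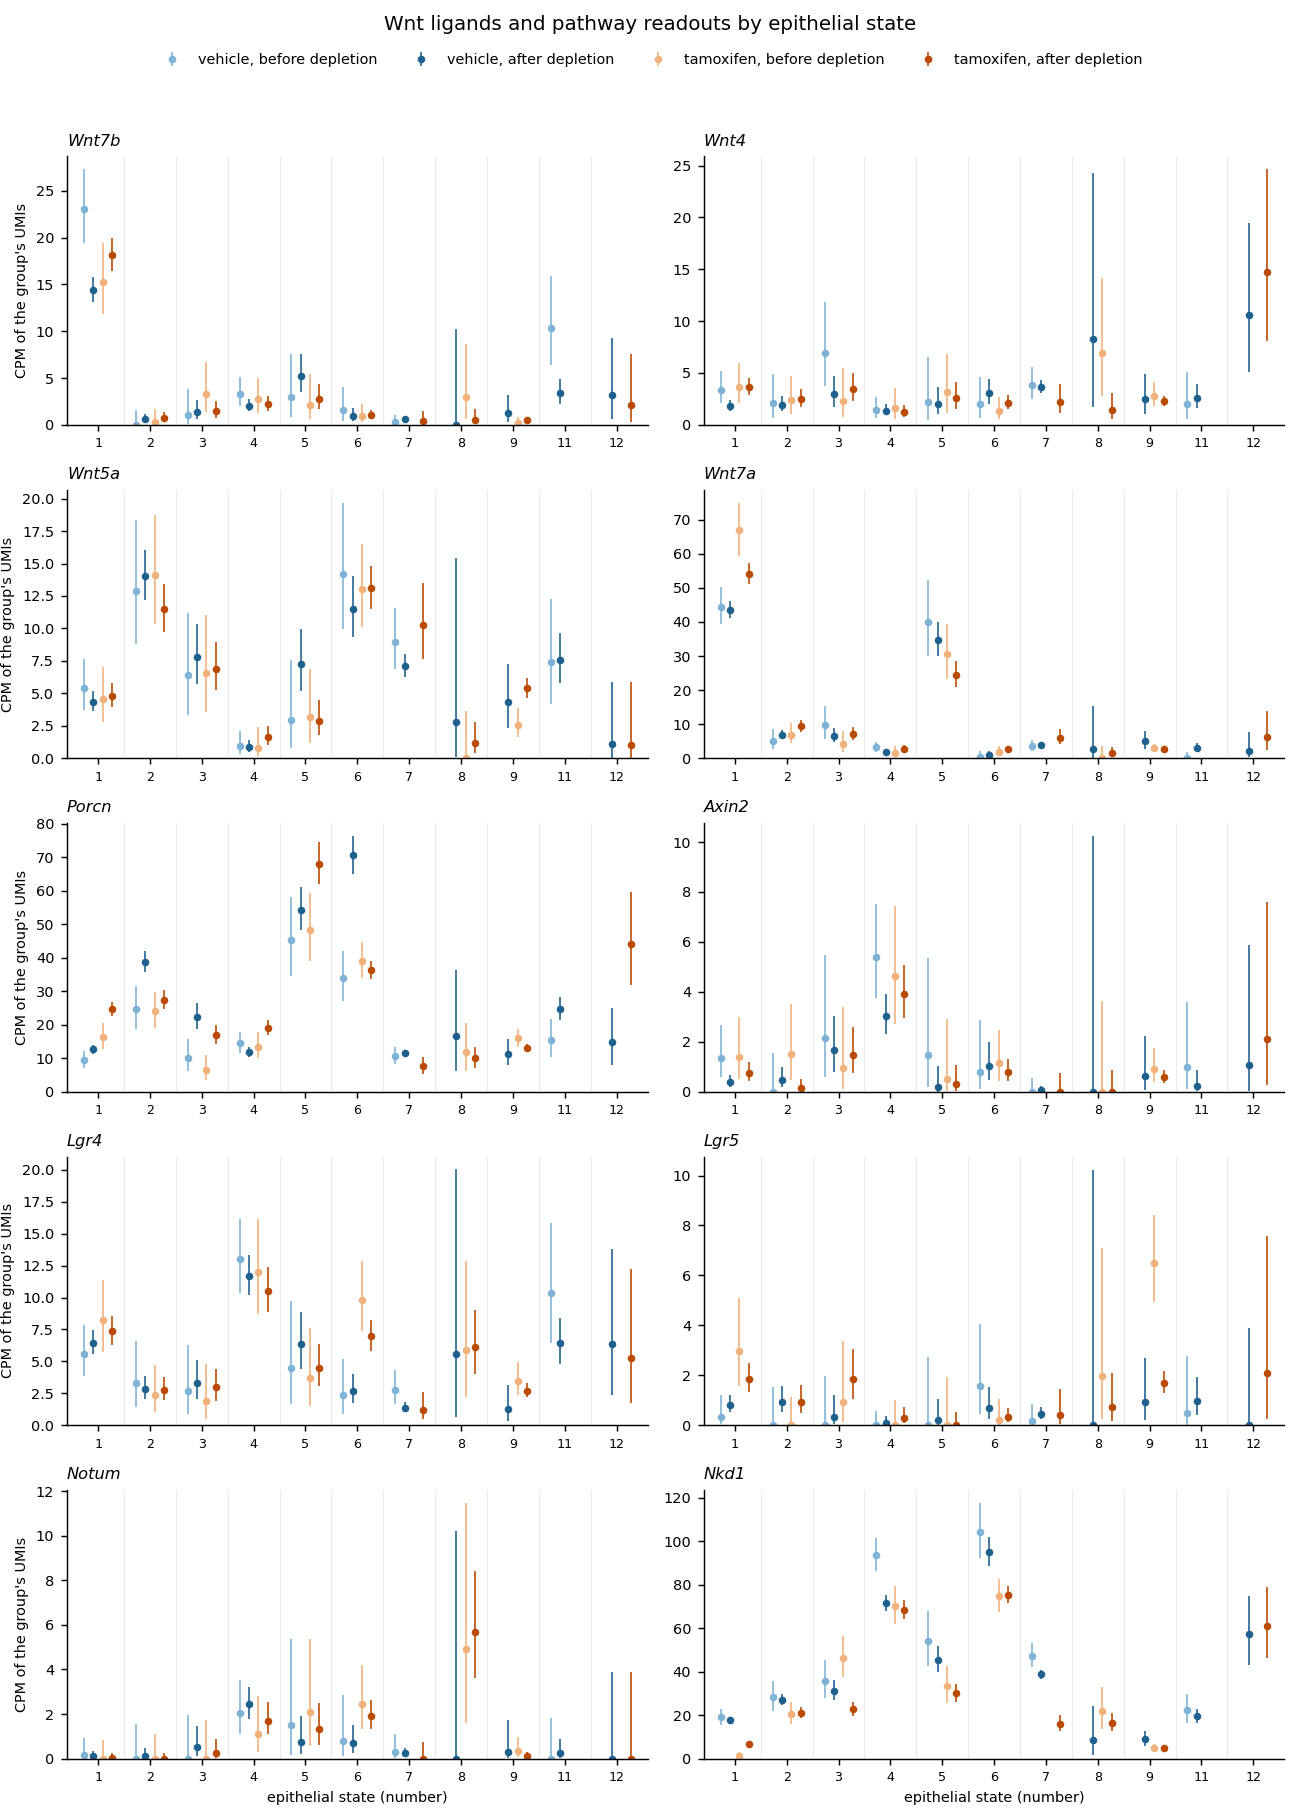
Levels of the 10 members by epithelial state, 1 point per library, with CPM on a linear axis that differs between genes and bars for the 95% counting interval; states 10 and 13 are not plotted. Wnt7a is highest in states 1 and 5 (24.5 to 66.9 CPM), Wnt7b in state 1, and Nkd1 in states 6 and 4.

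**Figure D3:**
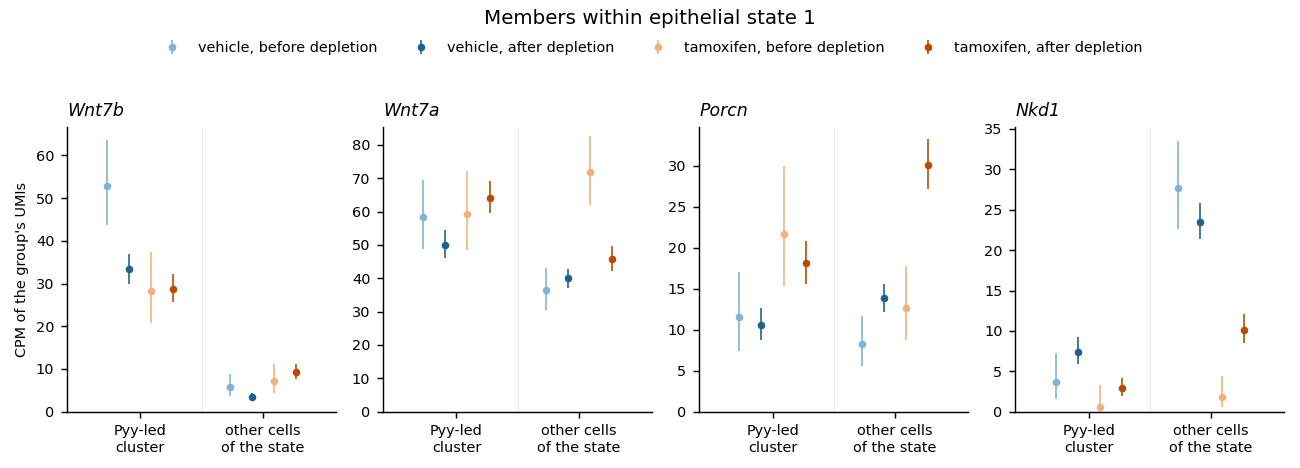
Levels of Wnt7b, Wnt7a, Porcn and Nkd1 within state 1, split into the Pyy-led cluster and its other cells, 1 point per library, with CPM on the vertical axis and bars for the 95% counting interval. Wnt7b lies between 28.2 and 52.9 CPM in the Pyy-led cluster and between 3.49 and 9.28 CPM in the other cells, while Nkd1 is the lower of the pair in the cluster in each library.

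Porcn, the membrane enzyme that attaches the lipid, was found in epithelium and fibroblasts, and its order among states and classes was not that of the ligands. It stood at 16.2, 21.6, 22.5 and 23.7 CPM in epithelial-like cells and at 14.7, 11.2, 17.9 and 18.5 CPM in fibroblast-like cells. Mural-like cells, with Wnt4 and Wnt5a levels like those of fibroblast-like cells, had 0 to 4.29 CPM of Porcn. Within the epithelium, ordered by the median over libraries, it was highest in state 5 (45.3, 54.3, 48.4 and 67.9 CPM) and state 6 (34.0, 70.6, 39.1 and 36.3 CPM), which overlap, although state 12 with 44.1 CPM was above state 6 in the tamoxifen post-depletion library. State 6 had almost no Wnt7a (0.395 to 2.74 CPM), and state 1, the main Wnt7a and Wnt7b state, had 9.44, 12.6, 16.2 and 24.7 CPM of Porcn.

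Of the receptors, Lgr4 was low but widespread and Lgr5 was lower still. Both bind R-spondins, secreted proteins that protect Frizzled receptors from removal. Lgr4 ran from 4.86 to 6.06 CPM in epithelial-like cells, from 5.28 to 15.1 CPM in fibroblast-like and from 6.26 to 17.1 CPM in mural-like cells, and these ranges overlap. Among epithelial states it was highest in state 4, with 13.0, 11.7, 12 and 10.5 CPM, and the only other values above 10 CPM came from state 11 in 1 library. The other state named alveolar type 2-like, state 2, had 2.40 to 3.33 CPM of Lgr4, below state 4 in every library. Lgr5 was counted 12, 77, 76 and 150 times in epithelial-like cells, which is 0.404, 0.566, 2.38 and 1.12 CPM. Fibroblast-like cells held 1.05, 4.32, 0 and 3.96 CPM of Lgr5, on so few cells that the intervals span the epithelial values in 3 libraries. The highest state value was 6.51 CPM in state 9 of the tamoxifen pre-depletion library, where state 9 of the tamoxifen post-depletion library, from the same suspension, held 1.68 CPM.

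Axin2, a scaffold of the β-catenin destruction complex and the most general target gene of the canonical branch, was mainly outside the epithelium. It stood at 39.5, 16.4, 44.3 and 14.5 CPM in fibroblast-like cells and at 27, 10.4, 12.9 and 14.6 CPM in mural-like cells. T cell-like cells, which were absent after depletion, had 20 CPM in the vehicle and 14.9 CPM in the tamoxifen pre-depletion library. Epithelial-like cells had 1.79, 0.780, 1.5 and 0.958 CPM, so the order of classes was stroma and T cells first and epithelium well below them. In fibroblast-like cells both pre-depletion values were above both post-depletion values.

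Within those classes Axin2 was uneven. Among the fibroblast-like cells it ran from 23.8 to 53.2 CPM in the Inmt and Mfap4-led subcluster. In the Spp1 and Col8a1-led one, not measured in tamoxifen pre-depletion, it ran from 10.6 to 18.9 CPM. These values did not overlap, but after depletion their counting intervals did. They were 9.58 to 49.1 against 4.93 to 22.5 CPM in vehicle and 9.03 to 53.5 against 3.43 to 24.6 CPM in tamoxifen. Among T cell-like cells it was 22.7 and 18.7 CPM in the cluster led by Skap1, Il7r and Ctla4, 15.7 and 7.30 CPM in the one led by Trdc and Il17a, and 12.2 and 6.23 CPM in the one led by Cd8a and Nkg7. In every T cell cluster the vehicle library had the higher value, and the ratio over all T cell-like cells was -0.42 on the log2 scale (-0.84 to -0.02). The TCF factors Lef1 and Tcf7, which are abundant in T cells and are themselves on the target list, reached 451 and 241 CPM there. Of the epithelial states, state 4 was highest for Axin2, with 5.39, 3.04, 4.65 and 3.91 CPM, and no other state passed 2.14 CPM in any library. State 4 thus had the highest level of both Axin2 and Lgr4 in each of the 4 libraries.

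Notum, a secreted enzyme that removes the lipid from Wnt ligands, was highest in fibroblast-like cells, at 14.7, 24.2, 33.0 and 34.3 CPM. Mural-like cells had 7.37, 4.17, 2.14 and 0 CPM, and epithelial-like cells 0.589 to 0.970 CPM. In the Inmt and Mfap4-led subcluster it ran from 18.6 to 45.1 CPM, and in the Spp1 and Col8a1-led one from 7.27 to 25.3 CPM, and these overlap. The highest epithelial value was 5.66 CPM in state 8 of the tamoxifen post-depletion library, on 29 UMIs over the state in all libraries, and state 8 cells were shallow, with a median of 8900 UMIs.

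Nkd1, an intracellular inhibitor that binds Dishevelled, was the readout with the widest reach. It stood at 52.6, 38.2, 73.6 and 69.9 CPM in endothelial-like cells, at 52.0, 39.2, 31.0 and 27.3 CPM in epithelial-like cells and at 34.2, 38.9, 50.9 and 26.4 CPM in fibroblast-like cells. Mural-like cells followed with 19.7, 22.9, 42.9 and 23.4 CPM, overlapping the fibroblast-like range. Macrophage classes stayed at or below 0.965 CPM. In thinned cells an Nkd1 UMI was seen in 11.4%, 7.84%, 7.33% and 6.01% of epithelial-like cells, against 0.0629% and 0.0495% of alveolar macrophage-like cells, whose median depths were 8764 and 8919 UMIs. Unthinned, the epithelial shares were 53.2%, 40.5%, 37.5% and 27.1% at median depths of 26219, 18477, 28681 and 16890 UMIs.

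Median Nkd1 over libraries ran from 4.94 CPM in state 9 to 85.1 CPM in state 6. Over all epithelial-like cells the libraries ran from 27.3 to 52.0 CPM, although state 1 also varied widely between libraries. State 6 had 104, 94.9, 74.8 and 75.4 CPM of it and state 4 had 93.7, 71.5, 70.2 and 68.5 CPM, ranges that overlap. State 12 (57.1 and 60.9 CPM) and state 5 (54.2, 45.6, 33.1 and 30.1 CPM) came next. State 1, the Wnt7a and Wnt7b state, had 18.9, 17.7, 1.37 and 6.88 CPM, and state 9 had 8.93, 4.94 and 4.74 CPM in its 3 measured libraries; these were the lowest large states. The 2 tamoxifen portions of state 1 differed from each other although they came from the same suspension. The 2 states named alveolar type 2-like differed here too, since state 2 had 28.3, 27, 20.7 and 21.1 CPM. Inside state 1 the Pyy-led cluster, high in Wnt7b, had 3.68, 7.44, 0.587 and 2.94 CPM of Nkd1, and the other cells 27.7, 23.5, 1.87 and 10.2 CPM, the higher value in each library.

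Nkd1 was also uneven in the endothelium, among the 3 subclusters with at least 20 cells in every library. The subcluster led by Slc6a6 and Cxcl12 had 121, 143, 120.2 and 133 CPM, the one led by Selp and Plac8 had 49.7, 30.9, 66.2 and 93.6 CPM, and the one led by Igfbp3 and Scgb3a1 had 22.6, 17.9, 20.8 and 9.15 CPM. These 3 ranges did not overlap. In single cells of state 6, Porcn was detected in 10.6% (6.08% to 16.9%) of cells with an Nkd1 UMI and in 4.33% (3.11% to 5.86%) of cells without one, in the thinned tamoxifen post-depletion library. In the vehicle post-depletion library the same shares were 12.4% and 13.2%, so the difference was not shared by the 2 libraries. State 6 also differed in make-up between them. Its Bex2-led finer cluster, described below, held 87.3% of the vehicle and 22.9% of the tamoxifen cells. That cluster had 97.2 and 112 CPM of Nkd1 and 72.5 and 90.8 CPM of Porcn in these libraries. The part of make-up in the single-cell shares was not tested.

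Treatments were compared in epithelial-like cells by the log2 ratio of the tamoxifen over the vehicle library, within the pre-depletion pair and within the post-depletion pair. Genes with at least 10 CPM in 1 or both libraries of a pair, in both pairs, were considered, and those that were 2-fold or more higher in both pairs, or 2-fold or more lower in both, were called apart, which is a criterion of size with no test behind it. It called 34 of 9041 genes higher (0.376%) and 83 lower (0.918%), 1.29% in either direction. Of the members, Wnt7a, Porcn and Nkd1 reached the minimum, and 0 of the 10 were apart.

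Nkd1 was lower in the library labelled tamoxifen in both pairs. From the levels given above, its log2 ratio was -0.75 before depletion (-0.86 to -0.63) and -0.52 after it (-0.58 to -0.46). Counting intervals lay below 0 in both pairs for 26.6% of all genes considered and above 0 for 20.9%, since these libraries are deep, so an interval clear of 0 does not set Nkd1 apart from other genes. Porcn was higher, by 0.47 (0.30 to 0.64) and 0.13 (0.06 to 0.21). Wnt7a differed by 0.02 (-0.18 to 0.22) and 0.01 (-0.08 to 0.10). Levels were also averaged over states with common weights, meaning that a state had the same weight in both libraries of a pair. This sets aside the change in size of the states used, while different states could weigh differently. It covered 6 states before and 10 after depletion. States with under 20 cells in either library of a pair were left out, among them states that changed much in size. The Wnt7a values were then 0.36 and 0.20 with 1 CPM added.

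The members under the minimum were less precise. Lgr5 was higher in both pairs, by 2.56 (1.67 to 3.57) and 0.99 (0.58 to 1.40), on the few UMIs given above, and the 2 pairs differ in size although they share their suspensions. With common state weights and 1 CPM added, the Lgr5 ratio was 0.51 and 0.32, against 1.27 and 0.44 unweighted. State 9, where its highest value was seen, held 14 cells of the vehicle and 199 of the tamoxifen pre-depletion library. It was therefore outside the pre-depletion weighting, so the 0.51 leaves out its Lgr5 UMIs. Wnt7b gave -1.02 before depletion (-1.39 to -0.67) and -0.08 (-0.25 to 0.10) after it. The ratios of Wnt4 (0.05 and -0.09), Wnt5a (-0.14 and -0.01), Lgr4 (-0.04 and 0.08), Axin2 (-0.25 and 0.30) and Notum (0.53 and 0.36) had intervals that held 0 in both pairs. Taking out the Pyy-led cluster, a choice made after its values were seen, left Wnt7b at -0.45 and 0.11 on the log2 scale with 1 CPM added, against -0.84 and -0.06 with it.

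**Figure D4:**
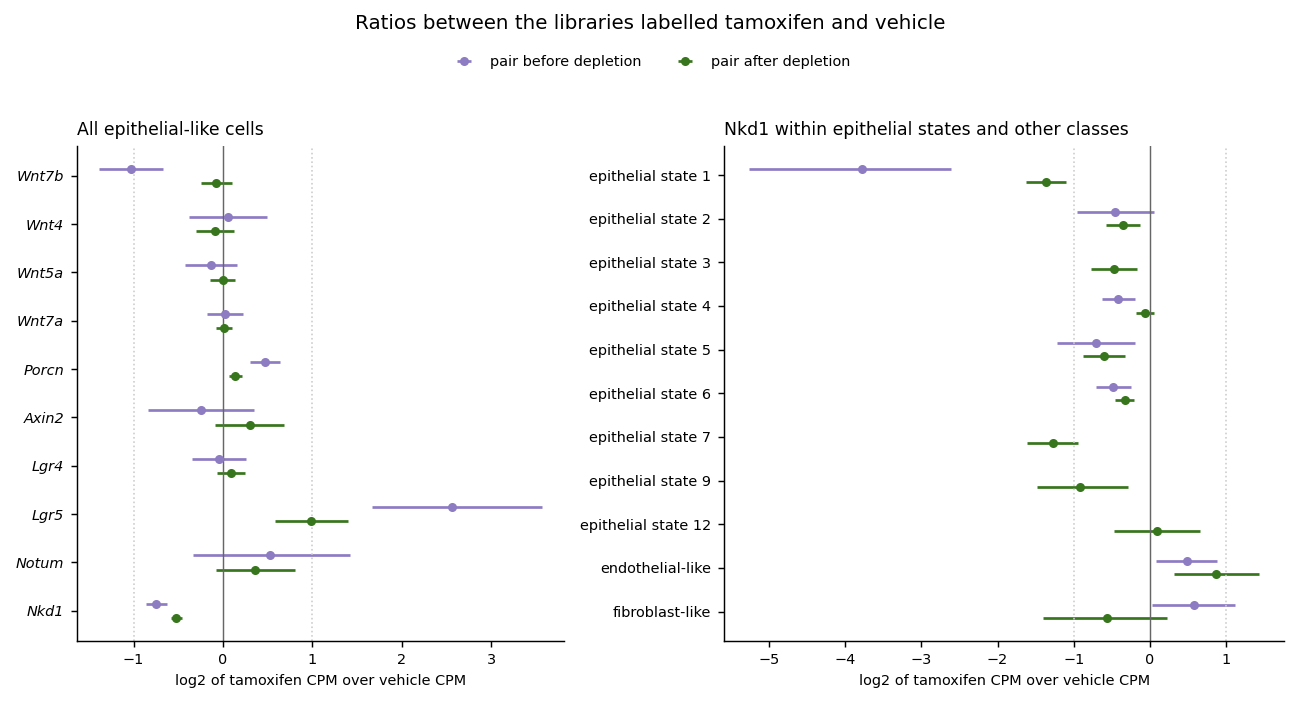
Log2 ratios of the library labelled tamoxifen over the vehicle library for the 10 members in all epithelial-like cells (left) and for Nkd1 within states and in endothelial-like and fibroblast-like cells (right), pre- and post-depletion pairs side by side, with bars for the 95% counting interval and dotted lines at a 2-fold difference. Nkd1 lies below 0 in both pairs (-0.75 and -0.52), Porcn and Lgr5 lie above it, and Nkd1 in state 1 lies furthest below it, at -3.78 and -1.36.

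Because the states changed in size between treatments, the ratio was also taken inside each state with at least 50 cells in both libraries. Nkd1 was lower in 5 of 5 states of the pre-depletion pair, with the interval below 0 in 4, and in 8 of 9 states of the post-depletion pair, with the interval below 0 in 7. States with fewer cells did not all go this way: state 3 had 35.8 and 46.4 CPM before depletion, where it held 55 and 48 cells, and state 8 had 8.32 and 16.5 CPM after it, with 48 cells in the vehicle library. Among the states compared, state 1 showed the ratios furthest below 0, -3.78 (-5.26 to -2.62) and -1.36 (-1.62 to -1.10), where 112 and 526 UMIs in the vehicle libraries stood against 6 and 160. By the criterion of size Nkd1 was apart in state 1, among 55 genes of 8861 (0.621%) called lower and 28 (0.316%) called higher there. State 7 gave -1.27 (-1.61 to -0.94) in the post-depletion pair, where 1.86% of genes were at least 2-fold lower. State 4 gave -0.42 (-0.63 to -0.20) before depletion and -0.06 (-0.18 to 0.06) after it, on 1609 and 1167 cells. State 6 gave -0.48 (-0.71 to -0.25) and -0.33 (-0.46 to -0.21). With common state weights, the ratio over the 6 and 10 states used was -0.51 and -0.43 with 1 CPM added. Unweighted, over all epithelial-like cells, it was -0.73 and -0.51.

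The states themselves differed in make-up between treatments, as a clustering at a finer resolution, examined after these values were seen, showed. In state 6 a finer cluster led by Bex2, Bex4 and Zmat4 held 87.2% and 87.3% of the cells in the vehicle libraries and 25.3% and 22.9% in those labelled tamoxifen. Finer clusters led by Gas6 and Zmat4 (4.65%, 6.16%, 34.5% and 42.5%) and by Dcn, Zmat4 and Stra8 (4.65%, 3.40%, 35.6% and 30.5%) held most of the rest. Within the Bex2-led finer cluster Nkd1 stood at 105, 97.2, 122 and 112 CPM, a post-depletion ratio of 0.20 (0.04 to 0.36), the opposite direction to state 6 as a whole. In state 1 the finer cluster led by Procr, S100a6 and Itga2 held 42.0%, 47.1%, 61.4% and 46.6% of the cells. One led by Unc13c and Ndnf held 35.7% and 36.8% in the vehicle and 7.02% and 9.88% in the tamoxifen libraries, and one led by Pyy and Pthlh held 5.59%, 1.34%, 21.1% and 29.2%. The Pyy and Pthlh-led one is not the Pyy-led cluster above. Within the Procr-led cluster Nkd1 stood at 15, 7.70, 2.05 and 6.04 CPM, a ratio of -2.87 (-4.40 to -1.62) before depletion on 38 and 6 UMIs and of -0.35 (-0.82 to 0.11) after it, where the interval holds 0. The Unc13c-led cluster had 36.3 and 33.1 CPM after depletion, a ratio of -0.13 (-0.47 to 0.19).

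Over the finer clusters with at least 50 cells in both libraries, Nkd1 was lower in 2 of 2 before depletion, with the interval below 0 in 2. After depletion it was lower in 13 of 15, with the interval below 0 in 5 and above 0 in 1. With common weights for the finer clusters and 1 CPM added, the ratio over epithelial-like cells was -0.21 and -0.18. It covered the clusters present in both libraries of a pair, which carried 44% and 78.1% of the weight. Both ratios were closer to 0 than those with common state weights.

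Endothelial-like cells went the other way for Nkd1, by 0.48 (0.09 to 0.89) before and 0.87 (0.32 to 1.43) after depletion. In these cells 0.198% of genes were at least 2-fold higher in both pairs, and Nkd1 was not among them. Of the 3 subclusters with at least 20 cells in every library, 1 was higher in both pairs, the Selp and Plac8-led one. The Slc6a6 and Cxcl12-led one had 121 against 120.2 CPM before and 143 against 133 CPM after depletion. The Igfbp3 and Scgb3a1-led one had 22.6 against 20.8 CPM and 17.9 against 9.15 CPM. Its values rest on 15 against 10 and 10 against 3 UMIs, with overlapping counting intervals in each pair. Smaller subclusters were not measured. The Slc6a6 and Cxcl12-led subcluster held 29, 20, 38 and 23 of the 143, 160, 144 and 121 endothelial-like cells. The part of this difference in make-up was not tested. Alveolar type 2 markers summed to 358 and 374 CPM in endothelial-like cells before depletion and to 1916 and 1878 CPM after it, close to each other within each pair. Fibroblast-like cells gave 0.57 (0.02 to 1.12) in the pre-depletion pair, and their post-depletion levels of 38.9 and 26.4 CPM lay in the other order.

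Porcn did not keep 1 direction among the states. It was higher in state 1, by 0.78 (0.25 to 1.31) and 0.97 (0.78 to 1.16), and in state 4 after depletion by 0.69 (0.43 to 0.95). State 12 held 14.8 and 44.1 CPM after depletion, a ratio of 1.58 (0.67 to 2.56) on 14 and 42 UMIs, where 4.57% of genes were at least 2-fold higher. It was lower in state 6 after depletion, by -0.96 (-1.12 to -0.80), and in state 2 by -0.49 (-0.69 to -0.31). Of 9 states compared after depletion, 4 had an interval above 0 and 4 an interval below 0. Inside state 6 the Bex2-led finer cluster had 34.2, 72.5, 95.7 and 90.8 CPM of Porcn, a post-depletion ratio of 0.32 (0.14 to 0.50), whereas the Dcn-led one, large in the tamoxifen libraries only, had 8.78 and 11.3 CPM there. The lower Porcn of state 6 was therefore not seen in its Bex2-led cells. Over 15 finer clusters the interval lay above 0 in 6 and below 0 in 2. Over the epithelial states used, the post-depletion ratio with 1 CPM added changed sign, to -0.11, with common state weights. It was 0.05 with common weights for the finer clusters. The pre-depletion values were 0.16 and 0.63.

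Among the ligands inside states, Wnt7a in state 1 was higher by 0.59 (0.34 to 0.83) and 0.31 (0.20 to 0.43), and in state 5 after depletion it was lower by -0.50 (-0.81 to -0.19). The near-0 ratio over all epithelial-like cells thus held unequal ratios in its 2 main states. Wnt7b in state 1 was -0.59 (-1.04 to -0.16) before and 0.33 (0.14 to 0.53) after depletion, opposite directions in portions of the same suspensions. Lgr4 in state 6 was higher in both pairs, at 2.37 and 9.83 CPM before and 2.68 and 6.96 CPM after depletion, with ratios of 2.05 (0.83 to 3.56) and 1.38 (0.73 to 2.09). Its pre-depletion levels stayed under 10 CPM, so the criterion of size, met by 0.794% of genes as higher in state 6, did not consider it. In the Bex2-led finer cluster Lgr4 was 2.96 and 6.16 CPM after depletion, a ratio of 1.06 (0.23 to 1.90), and in the Dcn-led one it was 16.5 and 11.1 CPM in the tamoxifen libraries. Notum in fibroblast-like cells was higher before depletion, by 1.16 (0.40 to 1.93) on 28 and 35 UMIs; the post-depletion levels were 24.2 and 34.3 CPM.

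The members were set beside a wider list of 82 Wnt pathway genes, 10 of them the members themselves, of which 28 reached the minimum in epithelial-like cells. None of the 28 was apart between treatments. In both pairs 10 had ratios above 0 and 8 below 0. Of all 9041 genes considered, 3132 were above 0 and 3608 below 0 in both pairs. With 1 CPM added, the median ratio was -0.05 and 0.12, beside -0.04 and 0.01 over all genes considered. Sp5, a transcription factor and canonical target, stood at 14.4, 14, 21.4 and 21.1 CPM in epithelial-like cells, a ratio of 0.57 (0.40 to 0.75) and 0.60 (0.51 to 0.68), the opposite direction to Nkd1. It was highest after depletion in state 9, with 48.3 and 35.2 CPM, where Nkd1 was 8.93 and 4.74 CPM. In state 1 Sp5 was 6.74, 6.14, 15.8 and 15.1 CPM, but in states 2 and 5 it was the lower in the libraries labelled tamoxifen, with 22.5, 25.3, 14.4 and 14.1 CPM in state 2. Targets therefore did not share 1 direction: Rnf43, a membrane ligase that removes Frizzled receptors, was higher by 0.22 and 0.61, and its relative Znrf3 lower by -0.43 and -0.09.

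Of the 72 genes of the list that are not members, 48 reached 10 CPM in some class or state of at least 50 cells. Mural-like cells, 29 to 47 per library, were too few for this, so the rankings below leave them out. Of them 4 were other ligands, each highest in fibroblast-like cells: Wnt11 at up to 81.8 CPM, Wnt2 at 26.8, Wnt9a at 23.3 and Wnt5b at 13.2. Wls, which carries ligands to the surface, reached 385 CPM in NK cell-like cells and stood at 207 to 247 CPM in epithelial-like cells. Of the receptors and co-receptors 15 of 17 reached the level. Fzd1 (345 CPM), Ryk (240.3), Ror2 (121), Fzd2 (44.3), Reck (43.5), Fzd8 (33.7) and Fzd3 (19.8) were highest in fibroblast-like cells, and Fzd4 (181), Fzd6 (71.7) and Adgra2 (32.6) in endothelial-like cells. Ror1 peaked in state 6 at 292 CPM, Lrp6 in state 11 at 118, Fzd7 and Lrp5 in state 2 at 63.3 and 55.5, and Fzd5 in state 5 at 40.5. The receptors thus peaked in different places among fibroblast-like cells, endothelial-like cells and epithelial states.

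Of 13 secreted and membrane inhibitors that are not members, 7 reached the level, each highest in fibroblast-like cells, as Notum was. Mural-like cells were again outside the ranking. They were Dkk2 (327 CPM), Wif1 (295), Sfrp1 (241), Dkk3 (175), Kremen1 (55.8), Sfrp4 (21.1) and Apcdd1 (20.8). The R-spondin receptor Lgr6 (21.6 CPM) and the targets Nkd2 (78.9) and Tnfrsf19 (52.8) were also highest there. Znrf3 reached 356 CPM in NK cell-like and Rnf43 36.2 CPM in T cell-like cells, and Prox1, a lymphatic endothelial factor, 33.8 CPM in endothelial-like cells. All 14 genes of the intracellular chain reached the level. They were Tcf7l2 (829 CPM, alveolar macrophage-like), Ctnnb1 (661) and Csnk1a1 (482) in endothelial-like cells, Lef1 and Tcf7 in T cells, Axin1 (81.5) and Dvl2 (12.5) in NK cells, Gsk3b (339), Tcf7l1 (287) and Bcl9l (60.0) in state 8, Apc (255) and Dvl3 (28.2) in state 5, Bcl9 (43.5) in state 6 and Dvl1 (39.7) in state 1.

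Genes with the pattern most like each member were sought over 57 profiles (class or state by library, at least 50 cells each), by Pearson correlation of log2(CPM + 1) among 14157 genes. The profiles share libraries and depth, so these values are descriptions. For the stromal ligands the nearest were Clec11a, Smim41 and Serping1 for Wnt4 (r 0.89, 0.89 and 0.88) and Kirrel, Ikbip and Dmpk for Wnt5a (0.92, 0.89 and 0.87). The nearest to Wnt7a were Msln, Pbp2 and Mab21l4 (0.93, 0.91 and 0.90), and to Wnt7b Igsf11, Il24 and Mucl3 (0.83, 0.78 and 0.78). Porcn was nearest to Dync2li1, Clba1 and Plxnb2 (0.91, 0.90 and 0.89). Notum was nearest to 2 collagen genes, Col6a2 and Col16a1, and the inhibitor Wif1 (each 0.90). Axin2 was nearest to Rgs16, 8030451A03Rik and Clip3 (0.82, 0.81 and 0.81), Nkd1 to Dlc1, Gja1 and Dbp (0.90, 0.88 and 0.85), and Lgr4 to Lgi2, Steap2 and Pmm1 (0.66, 0.64 and 0.64). Lgr5 reached 10 CPM in no profile and was not ranked.

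Other genes overlap 6 of the members: AU022754 (Wnt7b), Gm2670 (Wnt5a), Gm11670 (Axin2), A930009A15Rik (Lgr5), Myadml2os and Notumos (Notum) and Gm45496 (Nkd1). Whether strand was used in the counting is not given in the sources used here, so UMIs of overlapping genes could be shared for these members. In GRCm38 the members lie at chr15:85535437-85582473 (Wnt7b), chr4:137277489-137299726 (Wnt4), chr14:28504750-28527448 (Wnt5a), chr6:91363981-91411363 (Wnt7a), chrX:8193848-8206525 (Porcn), chr11:108920349-108950783 (Axin2), chr2:109917647-110014257 (Lgr4), chr10:115450311-115587780 (Lgr5), chr11:120653788-120661175 (Notum) and chr8:88521354-88594884 (Nkd1).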

How the data were processed

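Single-cell RNA was measured in 4 libraries, 1 per group. The authors deposited raw UMI counts per gene and cell barcode, made with Cell Ranger (7.2.0 per the submitters' processing notes, 7.0.1 per the file headers) on build mm10. Barcodes under 200 genes or over 20% mitochondrial UMIs were dropped, and doublets were removed at a Scrublet score of 0.25, set after the automatic threshold marked 208, 1, 87 and 0 cells; 196, 124, 116 and 153 were removed. Cells were clustered with scanpy 1.11.5 (2000 variable genes without the 82 Wnt list genes, 40 components, 15 neighbours, Leiden resolution 1 for all cells, 0.6 for epithelial-like cells and 0.5 for stroma and endothelium). Classes were named from marker lists. The resolutions, the removal of mixed groups and the pseudocount of 1 used to rank leading genes were set after clusters were seen; with the smaller pseudocount the Pyy-led cluster had stayed unnamed. Class names are rebuilt and may differ from the study's own.

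UMIs were summed per class and library and divided by the class total (CPM). Intervals are exact Poisson for levels, exact conditional binomial for ratios and Clopper-Pearson for shares, all 95% and for counting error only; a count of 0 allows 3 counts. Log2 ratios in the report carry no pseudocount unless 1 CPM is said to be added. The criterion of size and the closing section add 1 CPM. For shares of cells, each was thinned to 2000 UMIs and shallower ones were left out. Levels needed at least 20 cells, ratios at least 50. Feature names were matched to GENCODE M21 (32158 of 32289; 4 features are no mouse genes). Scaling by edgeR 4.0.16 and DESeq2 1.42.0 factors was an alternative. The criterion of size was checked on simulated data.

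The members, the gene lists and the comparisons were chosen with earlier results of these data known. All 10 members are named; other list genes are named where they reach 10 CPM in a class or state of at least 50 cells, and the 3 genes most like each member where that member reaches 10 CPM in a profile. The Pyy-led cluster, the finer clusters (2 times the epithelial resolution) and 3 alternatives were chosen after seeing the data.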

Additional observations from a re-analysis of the deposited data

Results flagged for a closer look

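Nkd1 went opposite ways between treatments in endothelial-like and epithelial-like cells. With 1 CPM added, its log2 ratio of the library labelled tamoxifen over the vehicle library was 0.48 in endothelial-like cells of the pre-depletion pair (0.4764) and 0.86 in those of the post-depletion pair (0.8551). In epithelial-like cells it was -0.73 (-0.728) and -0.51 (-0.5075). Of the 3 endothelial subclusters with at least 20 cells in every library, 1 was higher in both pairs. The Igfbp3 and Scgb3a1-led one had the lower value in both, at 22.6 against 20.8 CPM and 17.9 against 9.15 CPM. Those values rest on 15 against 10 and 10 against 3 UMIs, and their counting intervals overlap in each pair. With common weights for the finer epithelial clusters the epithelial ratios were -0.21 and -0.18. Both pairs had 1 direction within each class, but they are portions of the same suspensions, and the difference between the classes was not tested.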

How the results depend on the processing

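Each group had 1 library, so no replicate could be left out and nothing separates treatment from differences between animals, tumours or library preparations. No paired analysis was possible because each group holds 1 library and the pre- and post-depletion portions share their cells. The count of lower genes was 166 with no CPM minimum and 47 with a minimum of 20 CPM; under the other 7 settings both counts stayed within 1.5 times 34 and 83, with 38 higher and 89 lower without the Pyy-led cluster. Scaling by TMM or median of ratios moved the median ratio of all genes by less than 0.1, and all 20 member ratios stayed within their counting intervals. The Porcn ratio of the post-depletion pair turned to -0.11 (-0.1078) with common state weights, a setting under which 8 more of the 20 member ratios moved. With common weights for the finer clusters 9 of 20 moved, Nkd1 to -0.21 and -0.18. Nkd1 was -0.75 and -0.50 without the Pyy-led cluster. The level in the highest state moved for 8 of 20 at a coarser state resolution and 13 of 20 at a finer one, so the peak levels depend on how finely states are cut. Shares of cells moved with thinning depth in 40 of 40 without thinning. Few UMIs stand behind epithelial Lgr5, Notum and Axin2, and few cells behind the fibroblast-like and mural-like values.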
